A study of Sus scrofa with 48 samples.

Results

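The suppressors of cytokine signaling (SOCS) and the signal transducers they restrain were examined in longissimus muscle of growing pigs. Members were all array probes named SOCS1 to SOCS7, CISH, STAT3 or STAT5B in the annotation carried by the scanner files, plus the probe that the lists of very important predictors of feed efficiency (VIP) call SOCS6. A probe was kept when the scanner software marked its signal as well above background on 12 or more of the 48 arrays. The rule gave 28 probes of 60305 distinct probes on the array, all 28 were kept among the 42125 tested probes, and they covered 8 of the 10 genes. SOCS1 and SOCS7 had 0 probes under these names and were not analysed here. There were 4 probes each for SOCS2, SOCS4, SOCS5 and SOCS6, 3 for SOCS3, 1 for CISH, 5 for STAT3 and 3 for STAT5B. Probes of 1 gene share their target and are not replicates of each other.

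Cytokines and hormones such as interleukin 6, growth hormone and leptin bind receptors that activate Janus kinases, which phosphorylate STAT factors, and these move to the nucleus and switch on target genes. Several SOCS genes and CISH are themselves STAT targets, and their proteins bind the active receptor or kinase and recruit a ubiquitin ligase through the SOCS box, so that they form a feedback loop that ends the signal. SOCS3 is known to dampen interleukin 6, leptin and insulin signaling, SOCS2 and CISH to restrain growth hormone signaling through STAT5B, and SOCS6 to bind insulin receptor substrates.

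The pigs were purebred Large White barrows of 2 lines selected in opposite directions on residual feed intake (RFI), the part of feed intake not accounted for by growth and maintenance needs, so that low RFI pigs are the more efficient ones. Each line was fed ad libitum either a diet high in fat and fiber (HF) or a diet low in both (LF). There were 4 groups of 12 pigs: low RFI on HF, low RFI on LF, high RFI on HF and high RFI on LF, each pig on its own one-colour array. Pigs named by number are counted within their group in the order of the deposited samples. These numbers are not those at the end of the sample titles. Differences between lines are those between these selected lines, with their pedigree and whatever else separates them, and bulk muscle RNA holds all cell types, so that fewer cells of a type and less RNA per cell cannot be told apart.

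Expression levels are log2 spot intensities minus the mean of the array over the tested probes, so a level near 0 is that of an average tested probe, and levels of different probes are not comparable. Line differences are high RFI minus low RFI, averaged over both diets, and diet differences are HF minus LF, averaged over both lines. A difference was called when limma's moderated test gave a Benjamini-Hochberg adjusted p under 0.05 over the 42125 tested probes. The arrays lay on 6 slides with 2 arrays of each group per slide, and their median intensity ranged from 52.8 to 107.9. The arrays farthest out on the first and on the second principal component were of 2 high RFI pigs on the HF diet. Their absolute scores were 76.1 (SD of all arrays 29.7) and 79.3 (SD 20.4), and the farthest array of each component was taken whatever its distance. The 10 muscle fibre markers, such as actin ACTA1 and creatine kinase CKM, had a mean level over their probes between 8.82 and 9.38 in every pig. Precision is limited by the 12 arrays in each group.

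The probes that carry the line differences are those of SOCS3 and STAT3, and their sequences are shown because the probes of each gene did not behave alike. The STAT3 probes are given in full, in the order of their start in the porcine transcript where the array annotation gives one (1284, 1804, 2325 and 2353), and the probe printed first has no given start. Capitals mark a run of 24 bases that the last pair shares.
STAT3 O13776: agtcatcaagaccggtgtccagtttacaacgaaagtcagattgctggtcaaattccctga
STAT3 A_72_P349223: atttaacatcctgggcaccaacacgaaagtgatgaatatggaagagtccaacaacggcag
STAT3 A_72_P232807: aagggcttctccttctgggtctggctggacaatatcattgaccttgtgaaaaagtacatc
STAT3 A_72_P561986: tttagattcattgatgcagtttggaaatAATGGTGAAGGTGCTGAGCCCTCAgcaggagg
STAT3 A_72_P669204: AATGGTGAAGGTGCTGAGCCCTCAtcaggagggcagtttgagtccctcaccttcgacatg
Of SOCS3, the dim probe A_72_P185956 is given whole, and bases 1 to 30 of the other probes are given, since these may lie outside the coding part. The VIP probe for SOCS6, A_72_P001811, carries no gene name in the array files, and its bases 1 to 30 are given for that reason.
SOCS3 A_72_P185956: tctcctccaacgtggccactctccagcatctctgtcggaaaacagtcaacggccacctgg
SOCS3 A_72_P367438: gttaggagatgcttgaaaaactcaacgaaa
SOCS3 O9277: aatgtttacaatctgcctcaatcactctgt
SOCS6 A_72_P001811: gcaaaacttcacttcctcaagacaccacaa
The overlapping STAT3 pair shares 32 bases, of which 1 differs, while the SOCS5 probes A_72_P424764 and O5933 hold the same 60 bases. No shared run of 20 bases or more was found between a SOCS3 or SOCS6 probe and a probe of another named gene on the array.

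Between the lines, SOCS3 and STAT3 rose in high RFI pigs at some of their probes, and no member probe was called lower. The called probes were 4 of the 28 (14.3%), all higher in the high RFI line, namely 2 of the 3 SOCS3 probes and 2 of the 5 STAT3 probes. Of all tested probes, 16.4% were called between the lines, with 6.57% higher and 9.85% lower, so the share called among the members was near that of the array as a whole. The median line difference was 0.05 over the 28 probes and -0.03 over all tested probes, and the median absolute difference was 0.07 and 0.10, respectively. An unadjusted p under 0.05 was found at 5 of the 28 probes (17.9%), against 31% of all tested probes. On the HF diet alone 1 member probe was called higher and 0 lower, against 6.39% of all probes called (2.36% higher, 4.03% lower). On the LF diet alone 1 was called higher and 0 lower, against 2.47% of all probes (1.13% higher, 1.34% lower). On each diet it was STAT3 A_72_P349223.

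**Figure D1:**
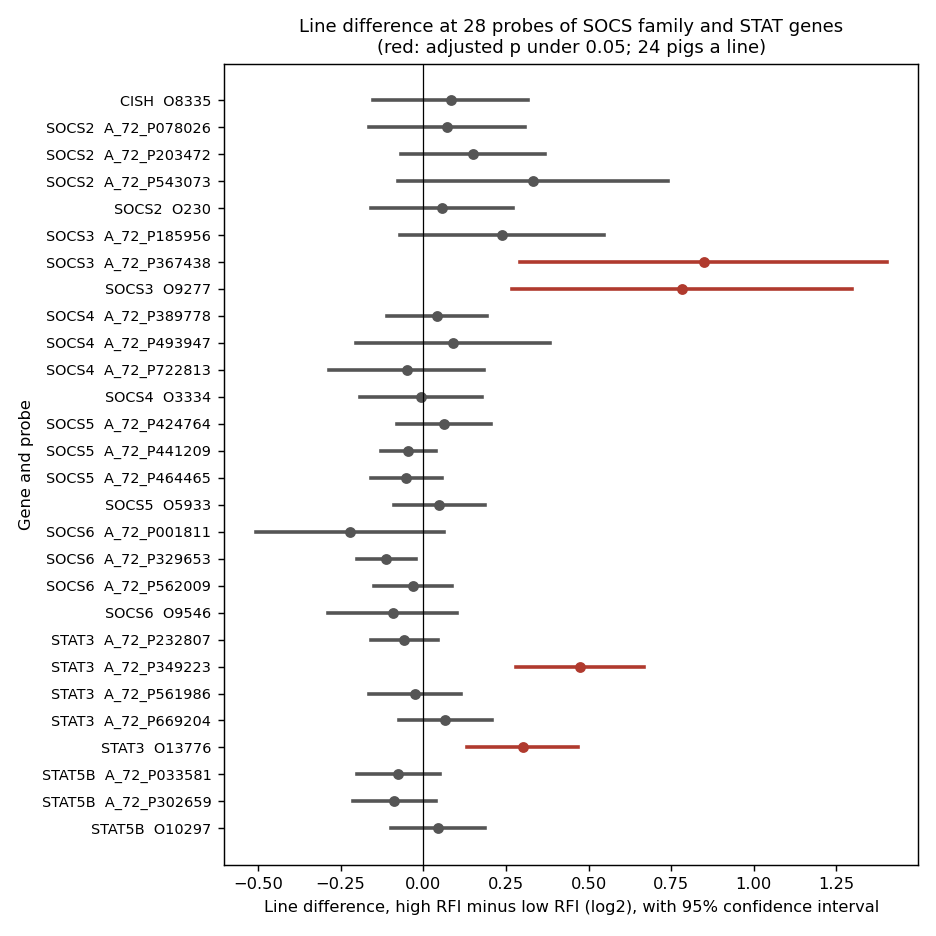
Line difference (high RFI minus low RFI, log2, x axis) with its 95% confidence interval for each of the 28 probes, grouped by gene, from the fit over 24 pigs of each line. The called probes, in red, are 2 of SOCS3, at 0.85 and 0.78, and 2 of STAT3, at 0.47 and 0.30, and all other intervals but that of SOCS6 A_72_P329653 include 0.

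SOCS3, the feedback inhibitor of interleukin 6 type signaling, showed the widest line difference of the family. At probe A_72_P367438, low RFI pigs on HF ranged from -1.23 to 1.50 (median -0.05) and low RFI pigs on LF from -0.59 to 2.01 (median 0.30). High RFI pigs ranged from -0.80 to 2.63 (median 0.91) on HF and from -0.96 to 3.47 (median 1.32) on LF. The groups overlapped widely, with 4 of 24 high RFI pigs above the highest low RFI pig and 2 of 24 low RFI pigs below the lowest high RFI pig, while 19 of 24 high RFI pigs were above the mean of the low RFI line. Group means rose in the order low RFI HF (0.01 ± 0.75, SD, n = 12), low RFI LF (0.45 ± 0.82, SD, n = 12), high RFI HF (0.92 ± 1.03, SD, n = 12) and high RFI LF (1.23 ± 1.25, SD, n = 12), and neighbours in this order overlapped. The line difference was 0.85 (standard error 0.28, limma adjusted p = 0.0283), or 1.80-fold. The study lists this probe among its predictors of feed conversion ratio, so its line difference is not independent of that choice.

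The second bright SOCS3 probe, O9277, gave nearly the same picture. Its median was -2.18 in low RFI pigs on HF (range -3.40 to -0.84) and -2.04 in low RFI pigs on LF (range -2.74 to -0.21), against -1.50 (range -3.03 to 0.32) and -1.02 (range -2.90 to 1.08) in high RFI pigs on HF and LF. The groups overlapped here too, with 3 of 24 high RFI pigs above all low RFI pigs. The line difference was 0.78 (standard error 0.26, limma adjusted p = 0.0291), or 1.72-fold. Both calls were lost without the filter on dim probes (limma adjusted p = 0.0522 and 0.0534). Deviations of the pigs from their group means correlated at r = 0.98 between both probes (n = 48).

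The third SOCS3 probe, A_72_P185956, was well above background on 32 of 48 arrays only, and its line difference of 0.24 did not pass the test (95% interval -0.07 to 0.55, limma adjusted p = 0.289). Its deviations correlated at only 0.24 and 0.23 with those of the bright probes. All 3 probes had a positive line difference on each of the 6 slides, from 0.10 to 1.95 at O9277. Within each scan day, a fit of 24 arrays gave 0.81 and 0.89 at A_72_P367438 (limma adjusted p = 0.281 and 0.193) and 0.83 and 0.73 at O9277, not called on either day, when only 3.09% and 2.24% of all probes were called. On each diet alone the bright SOCS3 probes were not called either, with differences from 0.76 to 0.91 and limma adjusted p from 0.137 to 0.304.

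SOCS3 was also among the most variable genes from pig to pig. The SD within groups was 0.98 at A_72_P367438 and 0.91 at O9277, larger than at 98.3% and 97.7% of the tested probes, whose median SD was 0.26. SOCS6 A_72_P329653 and SOCS5 A_72_P441209 were at the other end, with an SD of 0.15 and 0.14, larger than at 9.32% and 6.34% of the probes. Among all tested probes with a gene symbol, those whose deviations followed SOCS3 most closely were BCL3, a nuclear partner of NF-kappa B (r = 0.66), GALT, an enzyme of galactose use (r = 0.56), and CCL2, a chemokine that attracts monocytes (r = 0.55), each over 48 pigs and given as a description. The line difference of CCL2 was 0.53 (limma adjusted p = 0.0212, standard error 0.16), higher in high RFI pigs, whereas BCL3 and GALT differed by 0.09 and 0.02 and were not called.

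**Figure D2:**
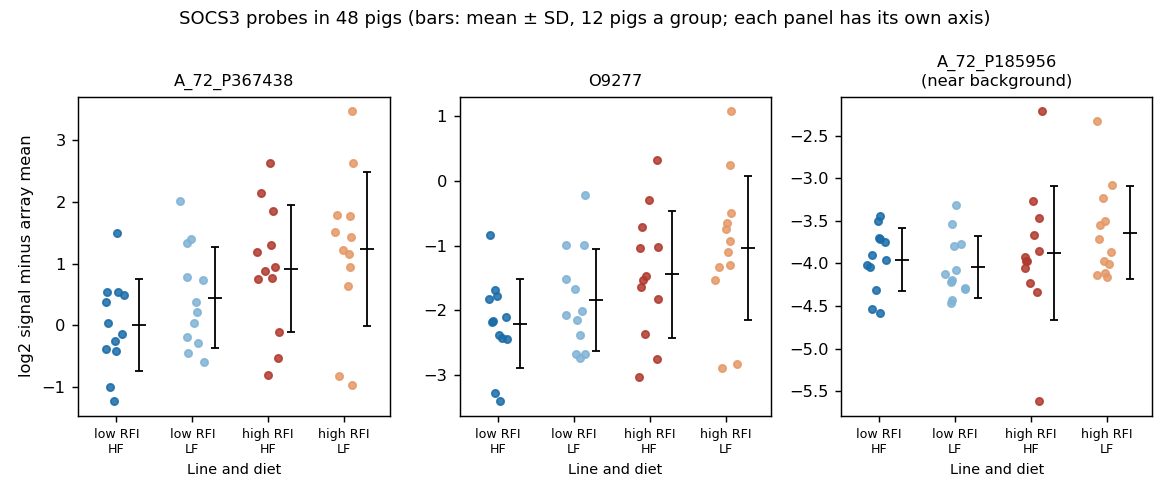
Level of the 3 SOCS3 probes (log2 signal minus array mean, y axis, own axis for each probe) in each of the 48 pigs by line and diet, with the mean and SD of the 12 pigs of a group. At A_72_P367438 the group medians were -0.05, 0.30, 0.91 and 1.32 and the groups overlap, and the dim probe A_72_P185956 shows a smaller difference.

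STAT3, the factor that interleukin 6 type cytokines activate and that switches on SOCS3, differed between the lines at a pair of probes and not at the other 3. At A_72_P349223, low RFI pigs had a median of -1.86 on HF (range -2.45 to -1.37) and -1.64 on LF (range -2.23 to -1.11). High RFI pigs had a median of -1.36 on HF (range -1.99 to -1.11) and -1.03 on LF (range -1.88 to -0.63). The lines overlapped, yet 21 of 24 high RFI pigs were above the mean of the low RFI line, 8 were above its highest pig and 6 of 24 low RFI pigs were below the lowest high RFI pig. The line difference was 0.47 (standard error 0.10, limma adjusted p = 0.000614), or 1.39-fold. By diet the difference was 0.43 on HF (limma adjusted p = 0.045) and 0.51 on LF (limma adjusted p = 0.0292). The HF call was lost without the 2 arrays farthest out (0.39, limma adjusted p = 0.111) and without the filter on dim probes (limma adjusted p = 0.105). It was also lost with normexp background correction (0.24, limma adjusted p = 0.0529) and in 14 of 48 fits that left out 1 pig. Normexp narrowed differences over the whole array. The median absolute line difference on HF was 0.08 over all tested probes, against 0.13 in the main fit. The LF call was lost without the filter (limma adjusted p = 0.0529) and in 5 of 48 such fits. The interaction of line and diet was -0.08 (95% interval -0.47 to 0.31, limma adjusted p = 0.999).

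At STAT3 probe O13776 the medians were -2.05 and -1.94 in low RFI pigs on HF and LF (range -2.71 to -1.53 over both groups) and -1.79 and -1.60 in high RFI pigs (range -2.32 to -0.97). High RFI pigs were above the mean of the low RFI line in 20 of 24 cases, with 5 of 24 above the highest low RFI pig. The line difference was 0.30 (standard error 0.08, limma adjusted p = 0.0107), with positive values on all 6 slides. At A_72_P349223 it was positive on 5 of 6 slides, with -0.13 on the remaining slide. Within scan days the differences were 0.51 and 0.44 at A_72_P349223 (limma adjusted p = 0.0901 and 0.0288) and 0.37 and 0.23 at O13776 (limma adjusted p = 0.0841 and 0.279).

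The other STAT3 probes, which start nearer the end of the transcript than A_72_P349223, gave line differences close to 0. These were -0.06 at A_72_P232807 (95% interval -0.16 to 0.04), -0.03 at A_72_P561986 (-0.16 to 0.11) and 0.07 at A_72_P669204 (-0.07 to 0.21), with limma adjusted p of 0.458, 0.84 and 0.552. Their intervals exclude the estimates of 0.30 and 0.47 of the called pair, but that of A_72_P669204 overlaps the interval of O13776 (0.13 to 0.47). A difference between probes was not tested. Among pigs of the same group, A_72_P349223 and O13776 followed each other (r = 0.67) and so did the overlapping A_72_P561986 and A_72_P669204 (r = 0.68), whereas A_72_P349223 and A_72_P232807 did not (r = 0.04). Whether STAT3 was called between the lines thus depends on the probe.

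**Figure D3:**
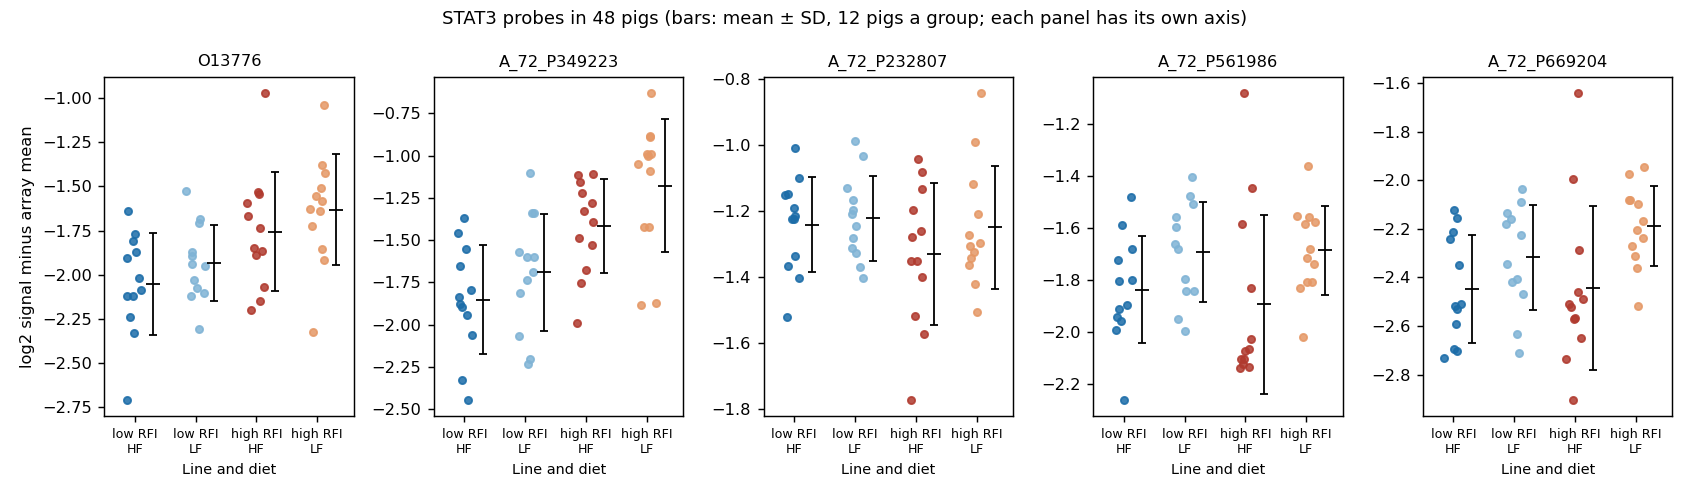
Level of the 5 STAT3 probes (log2 signal minus array mean, y axis, own axis for each probe) in each of the 48 pigs by line and diet, with the mean and SD of the 12 pigs of a group. High RFI pigs lie higher at O13776 and A_72_P349223, by 0.30 and 0.47, and not at the remaining probes, where differences run from -0.06 to 0.07.

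SOCS6, which binds insulin receptor substrates and the receptor KIT, had a lower mean in the high RFI line at all 4 probes, but 0 of them was called. On HF alone, A_72_P001811 and A_72_P562009 were higher in the high RFI line, by 0.03 and 0.04. The study's qPCR of SOCS6, over a larger set of pigs that included these, had the higher mean in the high RFI line, without a significant difference. At A_72_P329653, the low RFI medians were -1.21 on HF (range -1.39 to -0.89) and -1.11 on LF (range -1.42 to -0.93), and the high RFI medians were -1.36 (range -1.49 to -1.09) and -1.22 (range -1.41 to -1.01). The lines overlapped, with 6 of 24 low RFI pigs above the highest high RFI pig. The line difference was -0.11 (95% interval -0.20 to -0.02, limma adjusted p = 0.0725) and was negative on all 6 slides. It passed the threshold with slide as a block (limma adjusted p = 0.0491) and in the deposited log2 table (limma adjusted p = 0.0443). These settings called 8416 of 42125 and 6121 of 34472 probes, against 6919 of 42125 in the main fit. The other SOCS6-named probes differed by -0.09 (O9546) and -0.03 (A_72_P562009), with intervals that include 0.

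The VIP probe A_72_P001811 was chosen by the study with these pigs among its samples, so its place in the lists for RFI breeding value and feed conversion ratio is not independent evidence. Medians were -2.35 and -2.15 in low RFI pigs on HF and LF and -2.20 and -2.47 in high RFI pigs. The groups overlapped, and 1 low RFI pig on LF (pig 9) stood alone at 0.63, when the other 47 pigs reached at most -1.87. With this pig the line difference on LF was -0.47 (limma adjusted p = 0.213), and without it -0.23 (limma adjusted p = 0.318); the interaction of line and diet fell from 0.50 to 0.25 and was not called either way. In the same pig the 3 probes that carry the SOCS6 name were within the range of their group, at rank 6, 7 and 3 of 12. Deviations of the VIP probe correlated at 0.20, -0.08 and 0.15 with those of A_72_P329653, A_72_P562009 and O9546, while A_72_P329653 and O9546 correlated at 0.38.

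**Figure D4:**
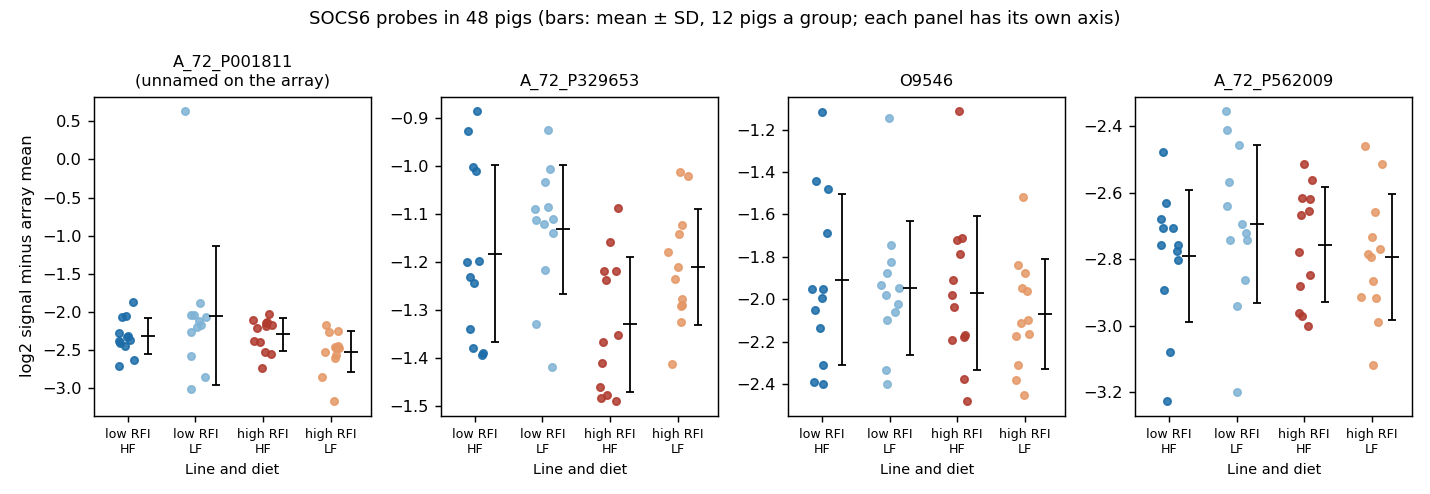
Level of the 4 SOCS6 probes (log2 signal minus array mean, y axis, own axis for each probe) in each of the 48 pigs by line and diet, with the mean and SD of the 12 pigs of a group. The VIP probe A_72_P001811 shows 1 low RFI pig on the LF diet at 0.63, far above the others, which the 3 named probes do not show.

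SOCS2 and CISH, the inhibitors of growth hormone signaling, were not called between the lines. All 4 SOCS2 probes had a positive line difference, from 0.06 to 0.33, and the intervals together ran from -0.17 to 0.74 with a smallest limma adjusted p of 0.265. The single CISH probe had medians from -1.39 to -1.26 over the 4 groups. Its line difference was 0.08 (95% interval -0.15 to 0.32), and 5 of 24 high RFI pigs were above every low RFI pig, at up to 0.33. The SD of CISH was 0.64 in high RFI pigs on HF and 0.41 in high RFI pigs on LF, against 0.23 and 0.20 in low RFI pigs on the same diets; a difference in spread was not tested.

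SOCS4 and SOCS5, which are linked to epidermal growth factor and interleukin signaling, were also not called. The SOCS4 line differences ran from -0.05 to 0.09, and 3 of its 4 probes were above background on only part of the arrays (25, 30 and 42 of 48). The SOCS5 line differences ran from -0.05 to 0.06, with intervals from -0.16 to 0.21. The identical SOCS5 probes A_72_P424764 and O5933 correlated at 0.90 among pigs of a group, whereas A_72_P464465, with another sequence, correlated at -0.35 with A_72_P424764. STAT5B, which carries the growth hormone signal, gave line differences of -0.09, -0.08 and 0.04, none called, and its O10297 probe did not follow the others (r = -0.08 and 0.04), which correlated at 0.63 with each other. The annotation of STAT5B probe A_72_P033581 also lists STAT5A, its neighbour in the genome.

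For diet, 0 of the 28 probes were called by limma and 0 by the variance analysis, against 0.42% of all tested probes called by limma (0.176% higher, 0.245% lower), and 6 of 28 (21.4%) had an unadjusted p under 0.05, against 13.1% of all probes. These 6 were 3 probes each of SOCS2 and STAT3. SOCS2 A_72_P078026 ranged from -3.65 to -1.93 on HF (median -2.65) and from -3.46 to -2.18 on LF (median -3.02), and the diets overlapped. Its diet difference was 0.31 (95% interval 0.07 to 0.54, limma adjusted p = 0.229), and those of A_72_P203472, O230 and the dim A_72_P543073 were 0.27, 0.23 and 0.08. SOCS2 probes followed each other closely within groups, at r from 0.55 to 0.81. STAT3 had lower means on HF at all 5 probes, from -0.20 to -0.05, with a smallest limma adjusted p of 0.201 at A_72_P669204. SOCS3 had lower means on HF as well, by -0.38 and -0.39 at the bright probes, with intervals from -0.93 to 0.18 over both.

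Within the low RFI line 0 member probes were called between diets, against 0.199% of all probes (0.112% higher, 0.0878% lower), and 0 had an unadjusted p under 0.05, against 11.6% of all probes. Within the high RFI line 0 were called, against 0% of all probes, and 4 had an unadjusted p under 0.05 (14.3%), against 5.47% of all probes. The interaction of line and diet was called at 0 member probes, against 0% of all probes, and 0 had an unadjusted p under 0.05, against 4.45% of all probes. The variance analysis also called 0 in each of these comparisons. The widest interaction was -0.55 at SOCS4 A_72_P493947 (95% interval -1.13 to 0.04, limma adjusted p = 0.999), a probe above background on 30 of 48 arrays.

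Whether members varied together among pigs of the same group was examined with 1 probe a gene, the one with the highest mean level, over the 28 pairs of the 8 genes. Because levels of different probes are not comparable, this choice does not mark the probe that stands best for its gene. Deviations from group means were correlated over 48 pigs and tested by permuting pigs within groups 100000 times, two-sided. Of the 28 pairs, 2 had an unadjusted p under 0.05 for Pearson's r and 0 after Benjamini-Hochberg adjustment, and Spearman's rho gave 0 pairs before and after adjustment. The closest pair was SOCS3 (A_72_P367438) and STAT3 (A_72_P232807, not called between the lines), with r = 0.37 (permutation p = 0.0182, adjusted 0.493) and rho = 0.29 (permutation p = 0.056, adjusted 0.586). Without the 2 pigs farthest from the SOCS3 median, r was 0.25. SOCS4 and SOCS6 had r = 0.33 (permutation p = 0.0352, adjusted 0.493) and rho = 0.28 (permutation p = 0.0706, adjusted 0.586), with r = 0.22 without the 2 pigs farthest from the SOCS4 median. These values are for SOCS4 O3334 and SOCS6 A_72_P329653. The other SOCS4 probes, above background on only part of the arrays, correlated with A_72_P329653 at 0.01, 0.01 and 0.12. The pair of CISH and its activator STAT5B had r = 0.02.

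The SOCS3 probe A_72_P367438 correlated at 0.37 to 0.47 with all 5 STAT3 probes, including those without a line difference, and O9277 at 0.35 to 0.44. The dim SOCS3 probe A_72_P185956 did not, at -0.21 to 0.14. Within single groups of 12 pigs, r of A_72_P367438 with STAT3 O13776 ran from -0.03 (high RFI on HF) to 0.86 (high RFI on LF). The pooled value for O13776 thus rests unevenly on the groups, whereas r with STAT3 A_72_P561986 ran from 0.37 to 0.60. For the other genes, the closest probe was that of NPG4 for CISH (r = 0.55) and of ZCCHC3 for SOCS2 (r = 0.56). It was a probe of SOS2, an activator of Ras, for SOCS6 (r = 0.68), of MCL1, a survival gene, for STAT3 (r = 0.61) and of RPLP0, a ribosomal protein, for STAT5B (r = 0.73). For SOCS4 and SOCS5 it was a probe of PPP1R12A (r = 0.85) and of ZER1 (r = 0.90). Other probes of these genes followed the members less closely, down to 0.40 for NPG4, 0.31 for SOS2, 0.28 for MCL1, 0.46 for RPLP0, -0.32 for PPP1R12A and -0.15 for ZER1, and ZCCHC3 had 1 tested probe.

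**Figure D5:**
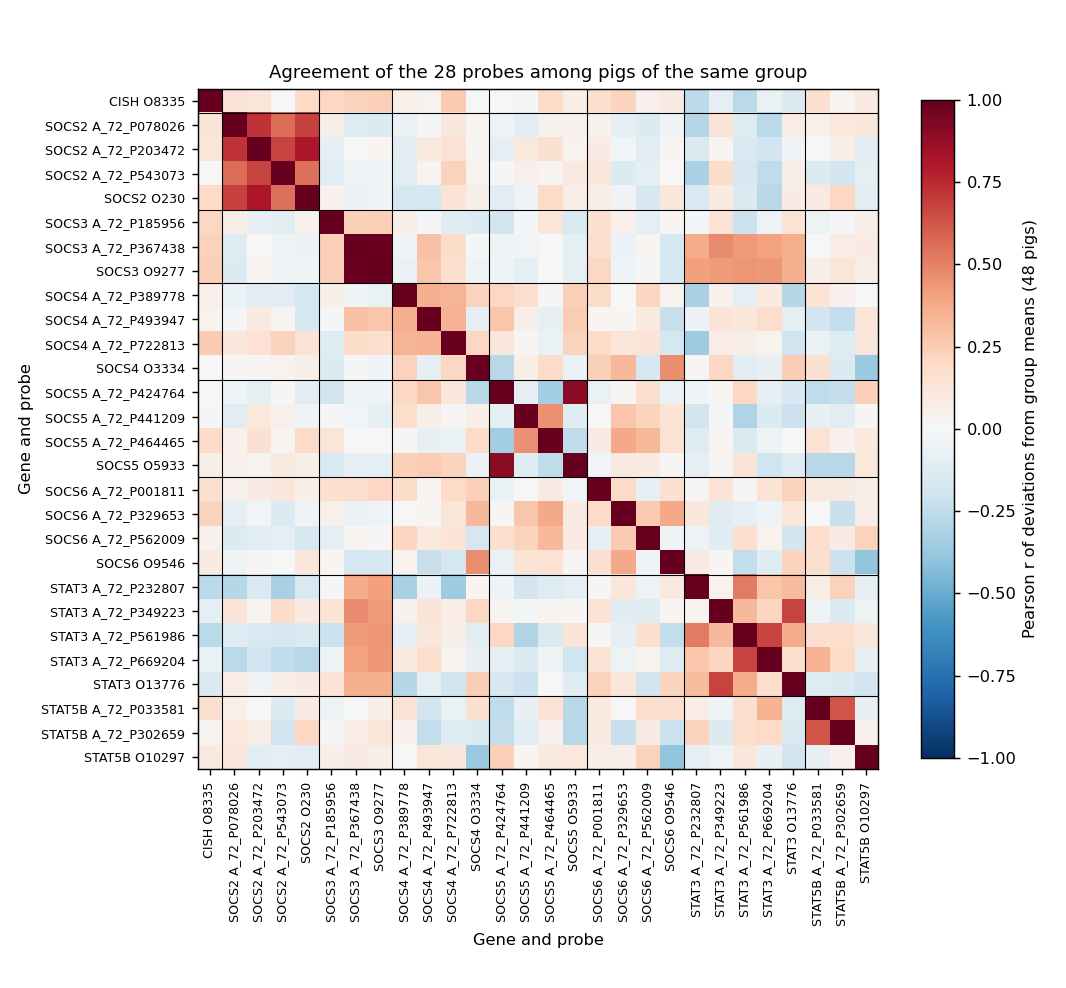
Pearson correlation of deviations from group means over 48 pigs (colour scale from -1 to 1) for every pair of the 28 probes, both axes ordered by gene, with lines between genes. SOCS2 probes agree at 0.55 to 0.81, and the bright SOCS3 probes at 0.98, whereas probes named SOCS4, SOCS5, SOCS6 or STAT5B agree in part only.

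Upstream of the members, the ligands and receptors were called in a few cases. Of the 4 tested ligand genes, 1 was higher in the high RFI line, the anti-inflammatory cytokine IL10, at both of its probes (0.90 and 0.73, limma adjusted p = 0.0031 and 0.0107). Of the 16 tested receptor genes, 3 were higher and 1 lower. The receptor IFNGR1 of interferon gamma was 0.22 higher and IL13RA1, part of the interleukin 13 receptor, 0.23 higher, and IL4R, the interleukin 4 receptor, was 0.47 higher. The growth hormone receptor GHR was called lower at 2 probes, at -0.24 and -0.21. The median line difference was 0.03 over the 9 ligand probes and -0.01 over the 33 receptor probes, against -0.03 over all tested probes. By probe, 2 of the 9 ligand probes were called, both higher, and 5 of the 33 receptor probes, 3 higher and 2 lower. The share over all tested probes was 16.4% (6.57% higher, 9.85% lower).

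The kinases and the STAT factors that are not members moved in different ways. Of the 4 Janus kinases, JAK3 and TYK2 were lower, with TYK2 at -0.28 and -0.20 and JAK3 at -0.14, JAK1 was not called at any of 7 probes, and JAK2 had 1 probe lower (-0.34) and 1 higher (0.22). Of the 5 other STAT genes, 3 were higher and 0 lower, namely STAT2, which carries interferon signals, by 0.17 to 0.25 at 3 probes, STAT5A by 0.21 at 1 probe and STAT6, the interleukin 4 factor, by 0.16 at 1 probe. The median line difference was 0.15 over the 18 probes of these STAT genes. Of the 18 Janus kinase probes 5 were called, 1 higher and 4 lower, and of the 18 STAT probes 5, all higher. The share over all tested probes was 16.4% (6.57% higher, 9.85% lower). Of 10 other inhibitors of the pathway, such as PIAS proteins and tyrosine phosphatases, 0 were called between the lines by limma. Their median line difference was 0.04 over 28 probes. CBL, a ubiquitin ligase, was 0.22 and 0.21 lower on HF at 2 of these 28 probes (limma adjusted p = 0.0371 and 0.0338). Between the diets, 0.42% of all tested probes were called (0.176% higher, 0.245% lower).

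Among partners of the SOCS box, 2 of 3 tested genes were lower in the high RFI line at 1 of their 2 probes each. These were TCEB1, the elongin C subunit that the SOCS box holds (-0.11), and RNF7, a RING subunit of the ligase (-0.28), and CUL2 was not called. Of 10 tested genes of the ankyrin repeat and SOCS box family, which share only the SOCS box with the SOCS genes and CISH, 2 were lower (ASB11 by -0.22 and ASB8 by -0.16) and 8 were not called. Of 12 tested STAT targets, 2 were higher and 1 lower: MYC was higher at 4 probes, by 0.50 to 0.62, IGF1, the growth factor downstream of growth hormone, was higher at 1 of 3 probes, by 0.20, and CCND1, a cyclin, was lower by 0.11. Among the 5 tested partners in receptor signaling, KIT was higher, by 0.63 and 0.35 at 2 probes, and the insulin receptor substrates were not called. By probe, 2 of 5 probes of SOCS box partners and 2 of 15 of the ankyrin repeat family were called, all lower. Of 41 STAT target probes 5 were called higher and 1 lower, and of 20 probes of receptor signaling partners 2 higher. The share over all tested probes was 16.4% (6.57% higher, 9.85% lower).

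Among markers of cell types other than muscle fibres, macrophage genes had the largest share called between the lines. Most genes of the remaining types were not called. Of the 6 macrophage genes, 4 were higher in the high RFI line (CSF1R, AIF1, CD14 and CD163), at 7 of 15 probes with a median difference of 0.44 over the 15, and none was lower. The mean level over these probes ranged from -2.12 to -0.56 in low RFI pigs on HF, from -1.68 to -0.25 in low RFI pigs on LF, from -1.46 to 0.73 in high RFI pigs on HF and from -1.50 to -0.04 in high RFI pigs on LF. Of 8 adipocyte genes with 43 probes, 2 were higher (FABP4 and LIPE, at 10 probes). Of 6 fibroblast genes with 26 probes, 2 were higher (COL1A1 and COL1A2, at 4 probes). Of 5 endothelial genes with 16 probes, 1 was higher (TEK, at 2 probes), and of 3 red blood cell genes with 3 probes, 1 (SLC4A1). None of 5 lymphocyte and 2 neutrophil genes was called. Of 10 muscle fibre genes 6 were lower, at 20 of 77 probes, with a median difference of -0.09 over the 77. Over all tested probes, 6.57% were called higher and 9.85% lower between the lines. Among pigs of the same group, the mean of the macrophage probes correlated at 0.22 with SOCS3 and that of the adipocyte probes at -0.03. The part of these cell types in the SOCS3 and STAT3 differences was not tested.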

How the data were processed

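Gene expression was measured in longissimus muscle of 48 barrows on the Agilent 60 K array. The authors deposited spot intensities from Agilent Feature Extraction 10.7.3.1, background subtracted, and a table of log2 values, which was found to be the log2 median spot signal with the array median subtracted. That table lists 34472 probes, 21 of the 28 member probes among them.

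Control spots and outlier spots were removed, spots of a probe were averaged, and log2 processed intensities were centred on the mean of each array, after the study's mean centering. Probes well above background on at least 12 arrays entered a linear model of the 4 group means (limma 3.58.1, R 4.3.3; 169 values were missing, 0 of them at member probes), with Benjamini-Hochberg adjustment at 0.05. Confidence intervals are at 95%. Permutations and figures used Python 3.11.15. The limma and permutation steps were tested on simulated data. The members, gene lists and tests were chosen with earlier results of these data known. The rule named all member probes, at most 3 called genes of each pathway list by size of the line difference, and at most 3 genes most correlated with each member. IFNGR1, CBL and the called marker genes fall outside it and were named after their values were seen. Lists include older and newer names of the same gene. Alternatives covered scaling, background correction, filters, outlier spots, slide, scan day, the deposited table, the variance analysis of the methods and arrays left out. Leaving out each pig in turn and fits of single scan days were added after the data were seen.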

Additional observations from a re-analysis of the deposited data

How the results depend on the processing

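The 4 probes called between the lines were those of SOCS3 and STAT3 under every scaling and the stricter filter. The same 4 were called with outlier spots kept, scan day as a covariate and the variance analysis. The deposited table called 5 of its 21 member probes and slide as a block 5 of 28, with SOCS6 A_72_P329653 added in each. Of all probes, these settings called 6121 of 34472 and 8416 of 42125, against 6919 of 42125 in the main fit. The variance analysis without adjustment gave 5, against 13104 of all 42125 tested probes. Without a filter on dim probes, 2 were called, against 3874 of all 60305 probes then tested. SOCS3 A_72_P367438 and O9277 kept their differences of 0.85 and 0.79 but had limma adjusted p of 0.0522 and 0.0534. With scan day 1 only 0 were called and with scan day 2 only 1, against 3.09% and 2.24% of all tested probes. The call of STAT3 A_72_P349223 on the HF diet was lost with no filter, with normexp background correction and without the 2 arrays farthest out. Differences were 0.43, 0.24 and 0.39 (limma adjusted p = 0.105, 0.0529 and 0.111), with 0 member probes called in each. Of all probes, these settings called 802 of 60305, 2138 of 42125 and 1486 of 42125 on HF. The normexp difference is on a narrower scale, with a median absolute difference of 0.08 over all probes on HF, against 0.13 in the main fit. The LF call was lost with no filter (0 member probes called, against 424 of all 60305 probes).

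Leaving out each pig in turn gave 4 to 5 called probes between the lines, 0 to 1 on HF and 0 to 1 on LF, and 0 in the diet comparisons and the interaction. SOCS3 and STAT3 calls between the lines held in all 48 fits, with limma adjusted p up to 0.0466. The HF call of STAT3 A_72_P349223 was lost without any 1 of 14 pigs (low RFI pigs 2, 5, 6, 7, 10, 11 and 12 and high RFI pigs 2, 4, 5, 6, 8, 9 and 10 on HF), at differences from 0.38 to 0.44, and the LF call without any 1 of 5 (low RFI pigs 2 and 10 and high RFI pigs 5, 10 and 11 on LF), at 0.46 to 0.49.

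Small differences changed sign at SOCS2 A_72_P078026 in the deposited table (-0.000654) and with normexp (-0.0145), and at SOCS4 A_72_P389778 after quantile normalization (-0.0282); the cause was not tested. Among the pairs of members, 0 were called under every setting. No paired analysis was possible because the labels give no replicate numbers that link pigs across groups. Probes near background limit what SOCS4, SOCS2 A_72_P543073 and SOCS3 A_72_P185956 can show.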
